A study of Mus musculus with 75 samples.

Results

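A set of 9 genes best known from neutrophils is described here across cells that the labels call EGC (enteric glial cells) of mouse gut. The members are the 9 symbols S100a8, S100a9, Ngp, Retnlg, Camp, Ltf, Mmp8, Mmp9 and Cxcr2, of 21051 symbols present in both deposited count tables (21076 in the table of the 24 h experiment). They were chosen after results of these data had been seen, among them a rise of several of these genes 24 h after LPS, so their differences between LPS and PBS at 24 h are given as a description, with no p. The contrasts between genotypes and between regions at 24 h were tested, but they use the same libraries. LPS is lipopolysaccharide, an endotoxin of the bacterial outer membrane, and PBS is phosphate-buffered saline.

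The series holds 75 bulk libraries in 16 groups, all from adult mice that carry the same transgenic reporter of green fluorescent protein (eGFP), treated and control animals alike. How the cells were separated from the tissue is not given in the sources used here. Untreated reporter mice gave the myenteric plexus (MP, the nerve layer between the muscle coats) and the submucosal plexus (SMP, the layer below the mucosa) of the small intestine, with 6 libraries each, and of the colon, with 5 each. Reporter mice killed 2 h after a single intraperitoneal injection of 2 mg/kg LPS, or of PBS, gave the myenteric plexus of both regions, with 4 libraries per region and treatment. At 24 h the myenteric plexus came from Gpr37WT reporter mice (wild type) and Gpr37-/- reporter mice (knockout of Gpr37, a glial G protein-coupled receptor with no settled ligand). Wild-type small intestine had 6 PBS and 4 LPS libraries, wild-type colon 4 PBS and 5 LPS, knockout small intestine 4 PBS and 5 LPS, and knockout colon 5 PBS and 4 LPS. Each library is 1 region of 1 animal, and at 24 h the labels number the mice. Libraries held 2547296 to 9002546 counts in untreated mice, 1990744 to 7883251 at 2 h and 2882539 to 33283346 at 24 h. In CPM (counts-per-million of the library, scaled by TMM), 3 counts, used here as the floor of detection, came to 0.329 to 1.11, 0.359 to 1.46 and 0.0933 to 1.09. The libraries were made with Smart-seq2, which carries no molecular identifiers, so floors and counting intervals cover counting error only.

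Neutrophils are short-lived white blood cells that leave the blood within hours of a bacterial signal, following chemokines such as Cxcl1 and Cxcl2 to the receptor Cxcr2. They carry premade granules: azurophil granules are filled early, in the promyelocyte, and specific and gelatinase granules later, with proteins such as Ngp, Camp, Ltf, Mmp8 and Mmp9. S100a8 and S100a9 together form calprotectin, the main protein of the neutrophil cytosol. Healthy enteric glia are not known for these genes, although Camp, Ltf, Mmp9 and the S100 genes can be made by other cells, including epithelium and monocytes. A bulk library cannot tell fewer cells of a type from less RNA per cell.

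All 9 genes are protein coding, and no other gene of the GENCODE M21 annotation of GRCm38 overlaps them. S100a8 (chr3:90668978-90670035, plus strand) and S100a9 (chr3:90692632-90695721, minus strand) lie 22.6 kb apart with no coding gene between them. Camp (chr9:109847379-109849617, minus strand), Ngp (chr9:110419747-110423012, plus strand) and Ltf (chr9:111019271-111042767, plus strand) share a stretch of chromosome 9, where 570 kb with 8 coding genes separate Camp from Ngp and 596 kb with 20 coding genes separate Ngp from Ltf. Mmp8 lies at chr9:7558456-7568485 (plus strand), Retnlg at chr16:48872621-48874496 (plus strand), Mmp9 at chr2:164940780-164955850 (plus strand) and Cxcr2 at chr1:74153989-74161246 (plus strand).

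The sequence before the start is shown for S100a8, S100a9, Ngp and Retnlg, whose levels at 24 h ran closest to the mean of the other members, and for Camp, whose level ran least close. The runs are from RefSeq on GRCm38.p6, in the direction of each gene, and end before the transcript starts. They cover chr3:90668821-90668977 (plus) for S100a8, chr3:90695722-90695971 (minus) for S100a9, chr9:110419558-110419746 (plus) for Ngp, chr16:48872358-48872607 (plus) for Retnlg and chr9:109849618-109849706 (minus) for Camp. Capitals mark TTGCNNAA, letters of the kind bound by C/EBP factors of the granulocyte lineage, or GAGGAA, letters of the kind bound by PU.1, on either strand.
S100a8: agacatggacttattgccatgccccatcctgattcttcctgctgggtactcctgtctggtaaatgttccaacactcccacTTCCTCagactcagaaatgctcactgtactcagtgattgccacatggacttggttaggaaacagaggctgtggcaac
S100a9: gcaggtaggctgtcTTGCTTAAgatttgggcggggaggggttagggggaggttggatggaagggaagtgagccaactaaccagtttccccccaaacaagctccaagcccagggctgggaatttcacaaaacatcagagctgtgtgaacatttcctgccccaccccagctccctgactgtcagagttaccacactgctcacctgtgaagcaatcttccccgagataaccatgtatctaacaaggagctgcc
Ngp: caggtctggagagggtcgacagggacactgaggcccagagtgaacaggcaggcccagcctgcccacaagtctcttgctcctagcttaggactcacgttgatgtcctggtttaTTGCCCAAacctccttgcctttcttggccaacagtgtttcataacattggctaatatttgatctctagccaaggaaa
Retnlg: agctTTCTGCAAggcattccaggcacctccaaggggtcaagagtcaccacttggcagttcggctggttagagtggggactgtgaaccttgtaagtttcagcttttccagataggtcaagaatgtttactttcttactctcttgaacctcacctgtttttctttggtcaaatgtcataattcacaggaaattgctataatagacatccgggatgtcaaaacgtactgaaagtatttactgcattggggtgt
Camp: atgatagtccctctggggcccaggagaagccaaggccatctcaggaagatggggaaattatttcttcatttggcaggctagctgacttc
Over the 250 bases before the RefSeq start, TTGCNNAA was found in 5 of the 8 members with an entry (S100a9, Ngp, Retnlg, Mmp8 and Ltf) and in 9.56% of all 32851 promoters. GAGGAA was found in 4 of 8 (S100a8, Cxcr2, Mmp8 and Ltf) and in 23.3% of all promoters, and both motifs in Mmp8 and Ltf and in 2.07% of all. The motifs share no position in these members. Camp held neither. Some matches lie closer to the start than the printed run, namely 11 bases before it in Ngp and 36 bases before it in S100a8. A match is a description of letters, and binding was not measured.

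In the small intestine of untreated animals Mmp9 was higher in the submucosal than in the myenteric plexus and Retnlg was found mainly in the submucosal plexus, while the calprotectin genes were low in most libraries of both layers. Mmp9 encodes gelatinase B, and Retnlg a small secreted resistin-like protein of mature neutrophils. In the submucosal plexus of the small intestine Mmp9 ran from 86.2 to 764 CPM (median 270.8, n = 6), against 0 to 12.7 CPM (median 2.91, n = 6) in the myenteric plexus. Every submucosal library was above every myenteric library. Mmp9 was 6.41 ± 1.01 (SE) higher on the log2 scale (edgeR's quasi-likelihood test, adjusted p = 3.99e-05 after Benjamini-Hochberg adjustment across all genes). Retnlg ran from 0.719 to 87.2 CPM (median 20.0) in the submucosal plexus and was at 0 in 5 of 6 myenteric libraries, the exception being male 2 with 4.41 CPM. Of the submucosal libraries 4 of 6 were above all myenteric ones. Of the 3 members that passed the filter on low counts, these 2 were called, where 43.5% of all 14090 genes tested were called in that comparison. Retnlg and S100a8 could not pass that filter without the submucosal libraries, so their differences between layers are given as a description, with no p. Nothing is read from this count or from that of the colon.

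S100a8 was present but scattered in the small intestine of untreated mice. It ran from 0.360 to 12.9 CPM in the submucosal plexus (median 1.11) and was at 0 in 4 of 6 myenteric libraries, with 0.617 CPM in male 1 and 12.5 CPM in male 2. The groups overlapped, with a difference of 0.68 ± 1.65 (SE) on the log2 scale. Male 2 was also the single myenteric library with S100a9 (8.82 CPM) and with Ltf (1.47 CPM), the gene of lactoferrin, the iron-binding protein of specific granules. Camp, the gene of the antimicrobial peptide cathelicidin, went the other way and failed the filter. It was at 20.0, 0, 0.999, 8.02, 8.09 and 0.151 CPM in myenteric libraries of female 1, female 2, female 3, male 1, male 2 and male 3, and at 0 in 4 of 6 submucosal libraries, where its highest value was 1.44 CPM. Ngp, the gene of neutrophilic granule protein, was at 0 in all 12 libraries.

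The colon of untreated mice showed the same members in the submucosal plexus at lower Mmp9. Retnlg was at 14.0, 34.9, 28.8 and 57.3 CPM in females 1, 2 and 3 and male 1 of the submucosal plexus, at 0 in male 3, and at 0 in all 5 myenteric libraries. Its mean was at least 46.5-fold higher in the submucosal plexus, with the floor taken over the myenteric group. S100a8 was at 22.7 CPM in female 1 and 4.44 CPM in male 1 of the submucosal plexus and at 0 in the other 3, and at 0 in all 5 myenteric libraries. That is at least 9.35-fold on means, with 2 of 5 libraries carrying it. Mmp9 was at 7.23, 10.5, 2.54, 6.66 and 0 CPM in the submucosal plexus and reached 3.85 CPM in the myenteric plexus, a difference of 2.34 ± 1.08 (SE) on the log2 scale that did not pass (edgeR, adjusted p = 0.126). The submucosal library of male 3, with no Retnlg, S100a8 or Mmp9, stood apart from the rest of its group. Its summed B and plasma cell markers were 742.2 CPM against 19130 to 45700 CPM, and its macrophage markers 342.5 CPM against 2963 to 5659 CPM. Among the 3 members tested 2 were called, where 21.8% of all genes were called. S100a8 was no longer among them without female 1 or male 1 of the submucosal plexus, with sex as a covariate and without any 1 of the myenteric libraries.

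**Figure D1:**
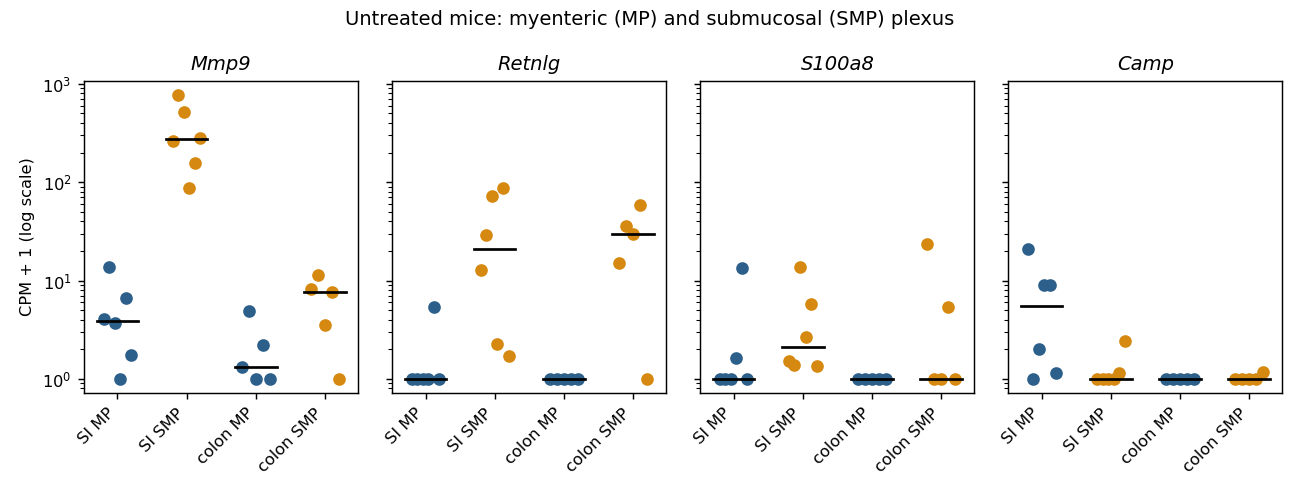
Points are libraries of untreated mice and bars are medians, as CPM + 1 on a log axis, for Mmp9, Retnlg, S100a8 and Camp in the myenteric plexus (MP) and the submucosal plexus (SMP) of the small intestine (SI) and the colon. Mmp9 of the small intestine separates the layers (86.2 to 764 against 0 to 12.7 CPM), while S100a8 overlaps there and Camp is at 0 in 4 of 6 submucosal libraries.

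Many other white cell genes were higher in the submucosal plexus as well, beside a large share of all genes called in either direction. The gene lists were chosen with results of these data known, so their counts are descriptions. In the small intestine, where 43.5% of all genes were called, 6 of 10 tested genes of specific and gelatinase granules were called higher and none lower, among them Cd177, a surface protein of neutrophils (8.12 ± 2.04 (SE) on the log2 scale). Of the receptors for chemoattractants and danger signals 12 of 15 were higher, as were 7 of 8 adhesion and surface genes, such as Ly6c2 (7.75 ± 1.07 (SE)), and all 6 subunits of the phagocyte oxidase. No azurophil granule gene passed the filter. Markers of other cells moved with them: 9 of 10 macrophage, 5 of 5 T cell, 6 of 6 B and plasma cell, 3 of 3 eosinophil and 5 of 5 epithelial markers were called higher and 6 of 6 glial markers lower. Summed epithelial markers ran from 935.5 to 4126 CPM in the submucosal plexus and from 8.68 to 178.9 CPM in the myenteric plexus, and summed glial markers from 501 to 1846 CPM and from 8661 to 13390 CPM. The part of these cells in the Mmp9 and Retnlg difference was not tested. In the colon, where 21.8% of all genes were called, 13 of 15 receptors, 7 of 8 adhesion genes and 6 of 6 oxidase subunits were higher, along with 8 of 10 macrophage and 6 of 6 B and plasma cell markers, and 3 of 6 glial markers were lower. Cd177 did not follow S100a8 in the submucosal plexus of the colon. It ran from 192.5 to 409.8 CPM in the 5 libraries, of which 3 had no S100a8. Summed epithelial markers ran there from 1252 to 4570 CPM.

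At 2 h after LPS, transcripts of S100a8 and S100a9 appeared in some LPS libraries and in no PBS library. S100a8 could pass the filter only through those LPS libraries, so its difference at 2 h is a description, with no p. In the small intestine S100a8 was at 85.6 CPM in female 1, 2.34 in female 3, 0.201 in male 2 and 0 in male 4, and at 0 in all 4 PBS libraries. Its mean was at least 28.5-fold above the floor of the PBS group. S100a9 followed it in females 1 and 3, at 45.2 and 3.38 CPM, and was at 0 in both males. Retnlg was at 25.4 CPM in female 1 and 0.201 CPM in male 2. Most of the signal thus sat in 1 library, that of female 1. Ngp and Mmp8, a collagenase of specific granules, were at 0 in all small-intestinal libraries at 2 h, and Cxcr2 reached 0.273 CPM, in female 1, which is under the floor.

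In the colon at 2 h S100a8 was at 2.45, 0, 4.21 and 0.277 CPM in females 1 and 3 and males 2 and 4 after LPS, and at 0 in all 4 PBS libraries. The mean was at least 2.04-fold higher. S100a9 was at 3.12 CPM in female 1 and 1.11 CPM in male 4. Retnlg, Ngp and Cxcr2 were at 0 in all 8 colon libraries. Camp was at 2.45 CPM in female 1 after LPS and at 0 in the other 7 colon libraries (edgeR, adjusted p = 0.601). In the small intestine Camp was at 0.819, 1.04, 8.04 and 14.4 CPM in females 1 and 3 and males 2 and 4 after LPS and at 7.51, 8.43, 0.975 and 11.5 CPM after PBS, a difference of -0.23 ± 1.57 (SE) on the log2 scale (edgeR, adjusted p = 1). Mmp9 was at 1.55, 10.2, 16.6 and 4.07 CPM after PBS in the small intestine and at 0 in all 4 LPS libraries there, and it failed the filter and was not tested.

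Of the 2 members tested at 2 h, S100a8 and Camp, edgeR called 0 in each region, where it called 1.1% of all 13107 genes for the small intestine and 0.778% for the colon. At an unadjusted p under 0.05, edgeR had 1 of the 2 in each region, S100a8 in the small intestine and Camp in the colon, with 681 and 987 of all genes. Since S100a8 passed the filter through LPS libraries alone, nothing is read from these counts. DESeq2 called 0 members in each, with 260 genes in all for the small intestine and 279 for the colon. The interaction of treatment and region called 0 members and 0% of all genes, with 0 members and 452 genes at an unadjusted p under 0.05. DESeq2 called 0 members and 44 genes there.

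The signals that draw neutrophils were already high at 2 h, while few other neutrophil genes were called. Of 6 chemoattractants and growth factors tested, 4 were called higher in each region, against 1.1% of all genes for the small intestine and 0.778% for the colon, among them the chemokine Cxcl1 in the small intestine (9.33 ± 1.19 (SE) on the log2 scale, adjusted p = 0.000261) and Cxcl2 in the colon (7.96 ± 0.90, adjusted p = 0.000202). Their summed level ran from 1341 to 2615 CPM after LPS and from 3.90 to 6.85 CPM after PBS in the small intestine, and from 1285 to 2554 CPM and from 4.00 to 14.9 CPM in the colon. Of the transcription factor list 3 of 5 tested genes were higher in each region, including Cebpd (2.70 ± 0.30 in small intestine, 2.59 ± 0.30 in colon), although 1 member of that list, Csf3, is the growth factor G-CSF. The cytokine Il1b was higher by 6.33 ± 1.02 in small intestine and by 9.07 ± 1.33 in colon. Of the specific and gelatinase granule genes 1 of 7 was called in the small intestine (Lcn2, by 4.97 ± 1.03) and 0 of 7 in the colon. No call was made among 10 receptors, 4 adhesion genes and 6 oxidase subunits tested in each region. The summed receptors nonetheless had a higher median after LPS: 623 CPM (207.8 to 889.2) against 185.5 CPM (95.2 to 405) after PBS in the small intestine, and 209 CPM (92.5 to 282.2) against 44.6 CPM (38.1 to 287.7) in the colon. Summed adhesion markers ran from 5.03 to 101 CPM after LPS and from 16.6 to 104 CPM after PBS in the small intestine. Summed B and plasma cell markers there ran from 11.9 to 920.6 CPM (median 196.7) after LPS and from 8.03 to 18.6 CPM (median 14.1) after PBS. After LPS they were lowest in female 1, whose S100a8 was highest.

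**Figure D2:**
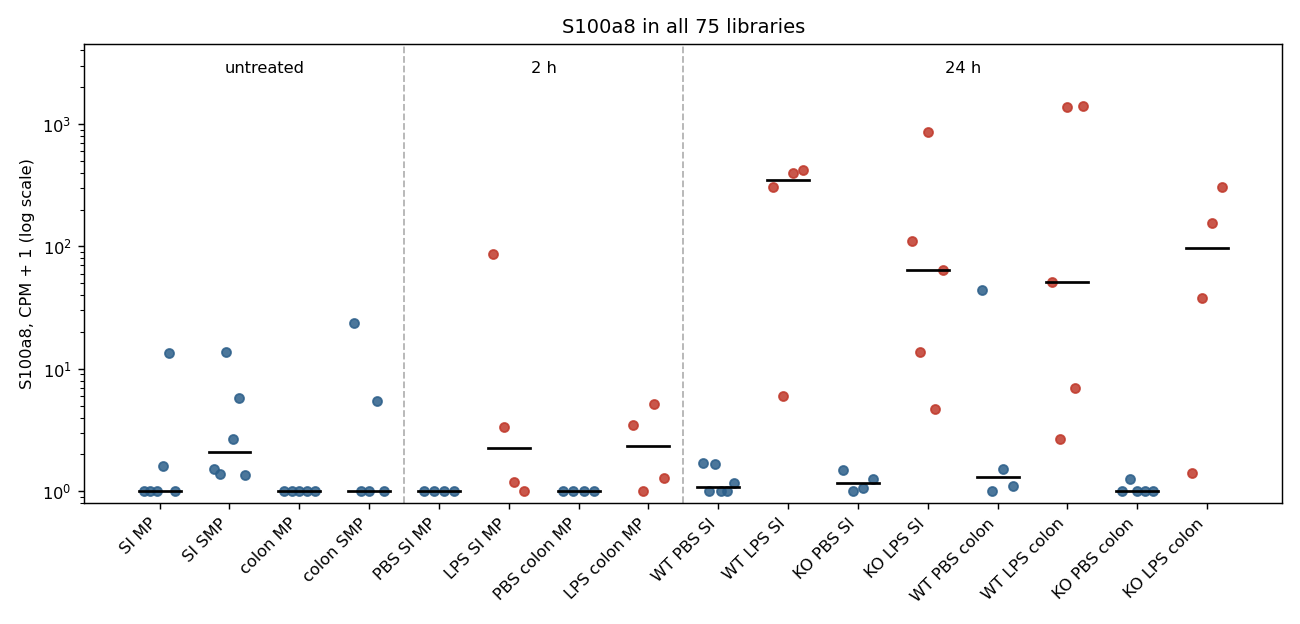
S100a8 in each of the 75 libraries, as CPM + 1 on a log axis, by group, with LPS libraries in red, all others in blue and bars at the medians (SI, small intestine; MP and SMP, myenteric and submucosal plexus; WT and KO, wild type and Gpr37 knockout). After LPS it reaches 85.6 CPM at 2 h and 1389 CPM at 24 h, and every 24 h LPS group also holds a library at or below 12.8 CPM.

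The labels of the 24 h libraries were checked against Gpr37. At most 3 counts of it were found in 17 of 18 knockout libraries and in 4 of 19 libraries labelled wild type, all after LPS: mouse 3 in both regions, mouse 5 in the colon and mouse 8 in the colon. The median of the 17 libraries labelled wild type other than those of mouse 3 was 6.54 CPM. The small-intestinal library of mouse 8 held 9.12 CPM, while the colon library is the only one of mouse 5. Wild type therefore stands for the label throughout, and the genotype comparisons are given without mouse 3 and without mouse 5 as well. The colon libraries of mice 3 and 8, both labelled wild type and given LPS, stood apart from the other 3 of their group in markers of other cells. Their summed epithelial markers were 3619 and 5339 CPM against 4.79 to 14.2 CPM, and their B and plasma cell markers 2798 and 1459 CPM against 0.959 to 10.2 CPM. The member differences that use wild-type LPS colon are given with and without them, a setting chosen after seeing the data.

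At 24 h in the small intestine of mice labelled wild type, S100a8, S100a9, Ngp and Retnlg were high in 3 of 4 LPS libraries and near 0 in all 6 PBS libraries. S100a8 was at 393 CPM in mouse 3, 423 in mouse 8, 302 in mouse 13 and 4.97 in mouse 16. In PBS libraries S100a8 ran from 0 to 0.715 CPM (median 0.0801). The groups did not overlap: mouse 16 was far below the other 3 LPS libraries and above every PBS library. S100a8 was 10.02 ± 2.04 (SE) higher on the log2 scale after LPS. S100a9, its partner, was at 135, 127, 112 and 0.741 CPM in mice 3, 8, 13 and 16 and reached 0.407 CPM after PBS, a difference of 9.84 ± 2.19 (SE). Leaving out any single library of either group kept the S100a8 difference between 9.75 and 10.79. Within the mice numbered 11 and above, a division of the 24 h libraries found in these data, it was 9.11, and without mouse 3 it was 9.83.

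Granule genes of the wild-type small intestine fell into those that followed S100a8 and those that did not. Ngp was at 91.3, 207, 333 and 1.59 CPM in mice 3, 8, 13 and 16, and the 6 PBS libraries held 1 count in all. The ratio of pooled rates was 7576 (95% counting interval 1359 to 299300, exact). Retnlg was at 51.3, 54.8, 54.6 and 0.106 CPM, again with 1 count in all PBS libraries, a pooled ratio of 1871 (335.1 to 74000). Ltf followed in mice 3, 8 and 13 (24.1, 38.2 and 5.36 CPM) and was at 0 in mouse 16, with 0 to 0.679 CPM after PBS and a difference of 6.47 ± 2.28 (SE). Mmp8 was at 51.8, 6.84, 31.5 and 0 CPM and, after PBS, at 1.11 CPM in mouse 23 and 0 elsewhere, a difference of 6.84 ± 2.08 (SE). Camp and Mmp9 overlapped with the controls, Camp through PBS mouse 24 alone. Camp was at 10.8, 22.0, 11.5 and 11.7 CPM after LPS and 1.48 to 20.0 CPM (median 4.49) after PBS, so mouse 16 had as much Camp as mice 3 and 13. The other 5 PBS libraries, at up to 5.27 CPM of Camp, were below every LPS library. Mmp9 was at 3.08, 8.57, 20.9 and 2.65 CPM after LPS and 0 to 19.5 CPM after PBS, a difference of 0.46 ± 1.78 (SE). Cxcr2, the chemokine receptor, was at 0.638 CPM in mouse 8 and 2.59 CPM in mouse 13 and at 0 in the other LPS and all PBS libraries. Per length, the mean of the LPS group in RPKM (CPM per kilobase of exon) was 405 for S100a8, 179 for S100a9, 129.5 for Ngp, 67.8 for Retnlg, 18.5 for Camp, 9.29 for Mmp8, 4.905 for Ltf, 2.49 for Mmp9 and 0.265 for Cxcr2.

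In the wild-type colon the S100 genes were at their highest of the series in mice 3 and 8. Of the 5 LPS libraries, 3 were above all PBS libraries for S100a8 and 2 for S100a9. S100a8 was at 1381 CPM in mouse 3, 1389 in mouse 8, 50.6 in mouse 13, 1.68 in mouse 16 and 5.91 in mouse 5 after LPS. After PBS it was at 43.2 CPM in mouse 14, 0 in mouse 19, 0.527 in mouse 22 and 0.0965 in mouse 24. LPS mice 16 and 5 were thus below PBS mouse 14 alone. The library of mouse 14 stood apart from the other PBS libraries in summed chemoattractants (142.6 CPM against 6.46 to 13.5 CPM) and Lcn2 (1172 CPM against 81.5 to 230.1 CPM). All PBS libraries were of mice numbered 11 and above, while LPS mice 3, 5 and 8 were numbered up to 10. Treatment and that division can therefore not be fully told apart here. The S100a8 difference was 5.70 ± 1.93 (SE) on the log2 scale, and 11.07 without the PBS library of mouse 14. Without the colon libraries of mice 3 and 8 it was 0.82 ± 1.59. S100a9 was at 547, 358, 12.0, 0 and 0.682 CPM in mice 3, 8, 13, 16 and 5, and its difference moved from 5.42 ± 1.96 to -0.12 ± 1.78 without those libraries and to 12.52 without PBS mouse 14.

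The granule genes of the wild-type colon did not follow S100a8 as they did in the small intestine. Mice 3 and 8 had nearly the same S100a8, yet Ngp was at 177 CPM in mouse 3 and at 0 in mouse 8, and Camp at 11.1 CPM and 0. Retnlg was at 53.1 and 11.0 CPM in mice 3 and 8, 0.364 in mouse 13, 8.15 in mouse 16 and 0 in mouse 5, against 2 counts in all 4 PBS libraries, a pooled ratio of 354.6 (95% counting interval 97.42 to 2940). Ltf was at 6.84 and 10.6 CPM in mice 3 and 8 and at 0 in the other 3. Mmp8 was at 0.236, 0, 2.91, 1.92 and 0 CPM in mice 3, 8, 13, 16 and 5, and Mmp9 at 19.8, 0, 7.28, 0 and 0 CPM. The PBS library of mouse 14 carried 82.3 CPM of Ngp and 17.4 CPM of S100a9, and the Ngp difference was 0.81 ± 2.08 (SE) in all libraries and -4.41 ± 2.76 without the colon libraries of mice 3 and 8. Leaving out 1 library moved the Ngp difference from -4.84, without mouse 3, to 11.46, without PBS mouse 14. Without the colon libraries of mice 3 and 8 the fitted difference of Retnlg went from 7.98 ± 2.49 to 5.78 ± 2.44 and that of Ltf from 4.90 ± 2.53 to -3.16 ± 3.62. Mmp8 went from 3.12 ± 2.23 to 3.85 ± 2.40, Mmp9 from 2.42 ± 2.05 to 1.21 ± 2.18 and Camp from 0.41 ± 1.17 to -0.17 ± 1.22. Cxcr2 was at 0 in all 9 libraries. No member separated the LPS from the PBS libraries of this group.

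In knockout mice the small intestine had the same leading genes, carried mostly by mouse 17. S100a8 was at 859 CPM in mouse 17, 109 in mouse 10, 62.9 in mouse 6, 12.8 in mouse 11 and 3.66 in mouse 21 after LPS, and at 0.495, 0, 0.0622 and 0.264 CPM in PBS mice 12, 15, 20 and 7. All LPS libraries were above all PBS libraries for S100a8, and likewise for S100a9, which was at 278, 54.7, 64.5, 2.93 and 1.56 CPM against 2 counts in all PBS libraries. The S100a8 difference was 10.14 ± 2.47 (SE) on the log2 scale and 8.01 without mouse 17. The S100a9 ratio of pooled rates was 1525 (95% counting interval 421.7 to 12600). Ngp was at 333 CPM in mouse 17, 3.22 in mouse 10 and 0 in mice 6, 11 and 21. Retnlg was at 228, 0.358, 16.4, 0 and 0.901 CPM in mice 17, 10, 6, 11 and 21. Mouse 17 also led Mmp8 (105 CPM), Mmp9 (63.8 CPM) and Cxcr2 (15.6 CPM), the highest Cxcr2 of the series.

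The other members of the knockout small intestine were low or overlapped. Camp was at 17.2, 20.8, 1.93, 11.6 and 3.30 CPM in mice 17, 10, 6, 11 and 21 and at 3.17, 0.846, 1.56 and 0.264 CPM in PBS mice 12, 15, 20 and 7, a difference of 2.89 ± 1.28 (SE). Ltf was found in mouse 17 after LPS (4.45 CPM) and in mouse 20 after PBS (3.98 CPM), and at 0 elsewhere. The difference of -0.19 ± 2.03 (SE) became -6.26 without mouse 17 and 5.97 without mouse 20. Mmp8 was at 6.44 CPM in mouse 10 besides mouse 17, and Mmp9 at 0.716, 1.61, 17.5 and 3.72 CPM in mice 10, 6, 11 and 21 against 0 to 10.9 CPM after PBS. The Cxcr2 mean was at least 13.3-fold above the floor of the PBS group, which was at 0, and mouse 17 held most of it.

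In the knockout colon S100a8 was at 306 CPM in mouse 21, 156 in mouse 2, 36.8 in mouse 17 and 0.403 in mouse 11, against 1 count in all 5 PBS libraries, in mouse 12. The pooled ratio was 4680 (95% counting interval 839.5 to 184900), and each LPS library was above each PBS library. S100a9 was at 82.9, 122, 16.0 and 0 CPM in mice 21, 2, 17 and 11. Ngp was at 43.1 CPM in mouse 21 and 21.5 in mouse 2 and at 0 in the other LPS and all PBS libraries, at least 35.2-fold on means. Mmp8 was at 16.1, 10.5, 22.4 and 1.05 CPM in mice 21, 2, 17 and 11 and at 0 in all PBS libraries, at least 27.3-fold, and with S100a8 it was the only member there whose groups did not overlap. Camp was at 0, 9.65, 0.889 and 1.93 CPM in mice 21, 2, 17 and 11 and at 0 in all PBS libraries, at least 6.80-fold. Retnlg and Mmp9 were also found after PBS: the library of mouse 7 held 7.66 CPM of Retnlg and 44.2 CPM of Mmp9 beside no S100a8, and their LPS libraries reached 40.4 and 8.55 CPM. That library of mouse 7 stood apart from the other 4 of its group, with 1541 CPM of summed B and plasma cell markers against 2.08 to 3.92 CPM, 124.9 CPM of T cell markers against 0 to 1.25 CPM, and 26.0% of its counts from mitochondrial genes, the highest share at 24 h. The part of these in its Retnlg and Mmp9 was not tested. Cxcr2 was at 8.67 CPM in mouse 21 and at 0 in the other 8 libraries.

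**Figure D3:**
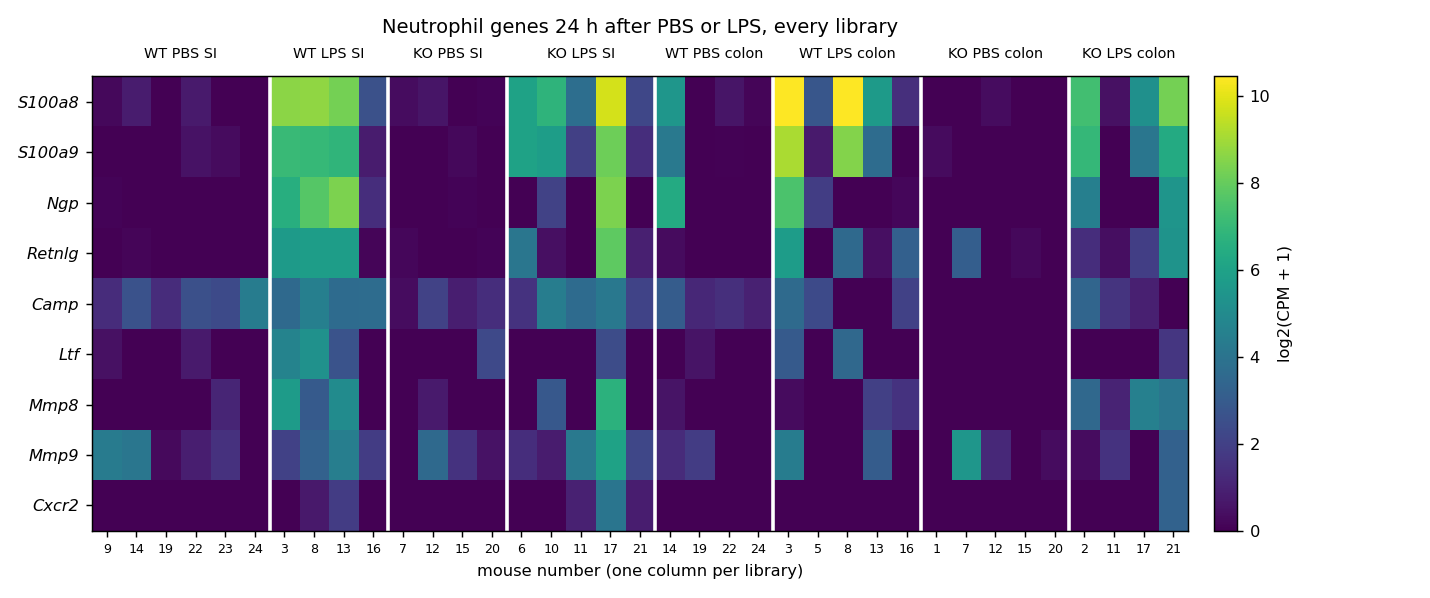
Each column is a 24 h library, labelled by mouse number and grouped by genotype (WT, KO), treatment and region (SI, small intestine), and each row is a member, with colour giving log2(CPM + 1) from 0 upward. S100a8 and S100a9 are bright in most LPS libraries, Ngp and Retnlg in fewer, and Camp is found in PBS as well as LPS libraries of the small intestine.

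Of the 8 members that passed the filter at 24 h, all except Cxcr2, edgeR called 5 higher in the wild-type small intestine, where 7.17% of all 14903 genes were called. It called 1 in the wild-type colon (7.96% of all genes), 1 in the knockout small intestine (0.718%) and 2 in the knockout colon (0.718%). These counts describe the contrasts by which the members came to be chosen, and nothing is read from them.

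Knockout and wild type were compared within each treatment, in contrasts that use the same LPS and PBS libraries as above. After LPS in the small intestine S100a8 differed by -0.42 ± 1.51 (SE) on the log2 scale, knockout minus wild type (edgeR, adjusted p = 0.986), S100a9 by -0.22 ± 1.55 and Ltf by -4.22 ± 2.23 (adjusted p = 0.692). Without mouse 3 these differences were -0.19 ± 1.66, 0.03 ± 1.73 and -3.97 ± 2.38, so the sign for S100a9 changed. The SE leaves room for differences of several-fold either way. After LPS in the colon S100a8 differed by -2.18 ± 1.62 (edgeR, adjusted p = 0.511), and by 2.71 ± 1.74 without the colon libraries of mice 3 and 8, so its direction rests on those libraries. It was -1.55 ± 1.66 without mouse 3 and -2.50 ± 1.63 without mouse 5. Mmp8 differed by 3.64 ± 1.96 in the colon (edgeR, adjusted p = 0.351), by 3.38 ± 2.17 without mouse 3, by 3.32 ± 2.09 without mouse 5 and by 2.96 ± 2.28 without the colon libraries of mice 3 and 8. After PBS in the colon S100a8 differed by -8.14 ± 2.58 (adjusted p = 1), with the wild-type level carried by mouse 14. Camp did not rest on that mouse alone. It was at 7.15, 1.25, 1.69 and 0.965 CPM in wild-type PBS colon of mice 14, 19, 22 and 24. In all 5 knockout PBS colon libraries it was at 0, a difference of -7.68 ± 1.72 (edgeR, adjusted p = 0.434).

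No member passed in these comparisons with edgeR. It called 0 of 8 after LPS, both for the small intestine (0.0134% of all genes) and for the colon (0.429%), and 0 of 8 after PBS in both regions (0% of all genes). At an unadjusted p under 0.05 it had 0 members in the first 3 of these, with 1137, 2448 and 256 of all 14903 genes. After PBS in the colon it had 4 members and 629 genes. DESeq2 called 0 members in the first 3, where it called 182, 719 and 58 genes. After PBS in the colon it called 4 members (S100a8, Ngp, Camp and Mmp8) and 74 genes in all. Mmp8 held 4 counts there in wild-type mouse 14 and none in any other library of the 2 groups. The interaction of genotype and treatment likewise gave 0 of 8 in both regions (0% of all genes). At an unadjusted p under 0.05 it had 1 member and 578 genes for the small intestine, and 2 members and 2009 genes for the colon. The interaction is built from LPS differences that were known in part when the members were chosen. For S100a8 it was 0.12 ± 2.11 (SE) for the small intestine (edgeR, adjusted p = 1) and 5.96 ± 3.15 for the colon (adjusted p = 0.411). Without mouse 3 these were 0.38 ± 2.73 and 6.60 ± 3.31, and without mouse 5 the colon value was 5.65 ± 3.14. Without the colon libraries of mice 3 and 8 the colon value was 10.87 ± 3.15 (edgeR, adjusted p = 0.233). For Camp the colon interaction was 7.42 ± 2.03 (edgeR, adjusted p = 0.170), and 7.49 ± 2.14 without mouse 5. DESeq2 called interactions of 0 members and 59 genes for the small intestine. For the colon it called those of 3 members (Ngp, Camp and Mmp8) and 344 genes in all.

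The 2 regions of a mouse did not carry the genes alike. Summed over the 9 members, mouse 17 (knockout, LPS) had small-intestinal and colonic sums of 1903 and 78.9 CPM, while mouse 21 of the same group had 13.9 and 508 CPM. Mouse 13 (wild type, LPS) had 873 and 73.2 CPM, and mice 3 and 8 had 760 and 888 CPM in the small intestine and 2197 and 1768 CPM in the colon. Mouse 16 was low in both, at 21.8 and 14.9 CPM. The small intestine had the higher sum in 2 of 4 LPS mice labelled wild type and 2 of 3 knockout LPS mice with both regions.

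Between regions after LPS, S100a8 differed by 1.01 ± 1.54 (SE) on the log2 scale, colon minus small intestine, in wild-type mice (edgeR, adjusted p = 0.824), and by -3.89 ± 1.84 without the colon libraries of mice 3 and 8 (adjusted p = 0.311). It was 0.59 ± 1.77 without mouse 3 and 1.33 ± 1.57 without mouse 5. In knockouts it differed by -0.75 ± 1.54 (adjusted p = 0.923). Mmp8 differed by -4.49 ± 2.02 in wild type (edgeR, adjusted p = 0.305), and by -3.82 ± 2.37 without the colon libraries of mice 3 and 8. edgeR called 0 of 8 members in wild type (0.262% of all genes) and 0 of 8 in knockout (0.0738%). At an unadjusted p under 0.05 it had 1 member and 2168 genes in wild type, and 0 members and 1494 genes in knockout. DESeq2 called 0 members in both, with 668 genes in wild type and 323 in knockout. With the animal as a block, edgeR called 0 members and 19 genes in wild type, against 39 without it, and 0 members and 4 genes in knockout, against 11.

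**Figure D4:**
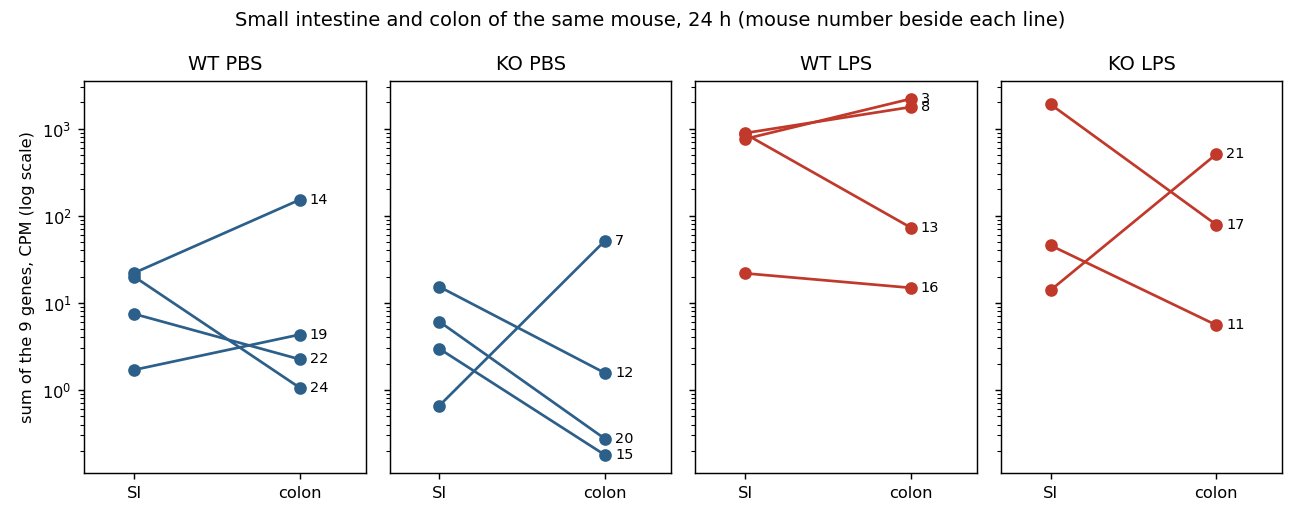
Lines join the small intestine (SI) and the colon of the same mouse, with the sum of the 9 members in CPM on a log axis and the mouse number beside each line, by genotype (WT, KO) and treatment. Mice 17 and 13 lie higher in the small intestine than in the colon (1903 and 78.9, 873 and 73.2 CPM), while mouse 21 lies higher in the colon (13.9 and 508 CPM).

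Within libraries the members differed in how closely they kept company with S100a8. Over all 75 libraries, 24 held more than 3 counts of both S100a8 and S100a9. S100a8 had the higher count in 20 of these, with a ratio of counts from 0.692 to 6.71 (median 2.501). S100a8 alone exceeded 3 counts in 11 libraries and S100a9 alone in 1. At 24 h, Ngp exceeded 3 counts in 11 of 37 libraries, each of them with more than 3 counts of S100a8. Camp exceeded 3 counts in 28 libraries, 8 of them without S100a8, and Mmp9 in 24, 8 of them without S100a8. Over the 37 libraries of 24 h, Pearson's r of log2 CPM with the mean of the other members was 0.874 for S100a9, 0.848 for Ngp, 0.827 for Retnlg, 0.718 for Mmp8, 0.684 for Ltf, 0.408 for Mmp9 and 0.406 for Camp. The points share treatment, mice and depth, so these are descriptions.

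**Figure D5:**
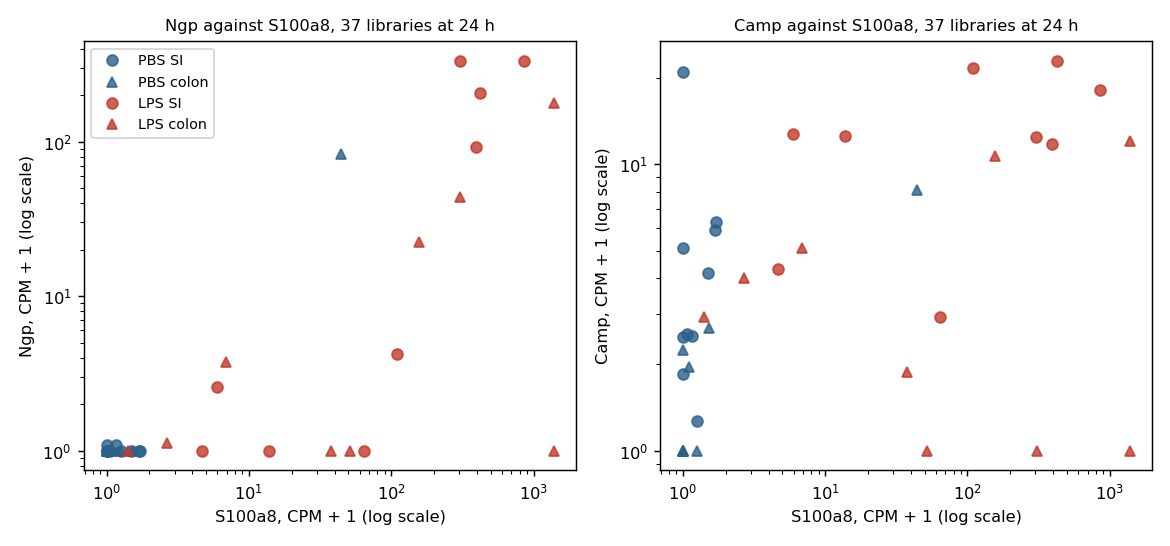
Ngp (left) and Camp (right) against S100a8 in the 37 libraries of 24 h, each as CPM + 1 on log axes, with PBS in blue, LPS in red, circles for the small intestine (SI) and triangles for the colon. Ngp exceeds 3 counts in 11 libraries, all with S100a8, while Camp reaches 20.0 CPM in a PBS library with S100a8 at 0.

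The genes outside the members whose log2 CPM over the 37 libraries was most like the mean of the 8 tested members were, in order, Wfdc21 (r = 0.895), Il1r2 (0.818), Fpr2 (0.817), Slfn1 (0.785), Wfdc17 (0.781), Igsf6 (0.778), Bcl2a1a (0.769), Saa3 (0.769), Trem1 (0.765) and Sod2 (0.754). Fpr2 and Trem1 are receptors of myeloid cells and Il1r2 is the decoy receptor of interleukin 1.

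The rest of the neutrophil programme was only in part seen at 24 h. Azurophil granule genes were low, with sums from 0 to 12.0 CPM over the 37 libraries. Mpo, the myeloperoxidase gene, exceeded 3 counts in 10 libraries and reached 11.8 CPM in wild-type LPS colon, and Prtn3, the proteinase 3 gene, did so in 13 libraries, PBS ones among them, and reached 3.86 CPM. Elane, the neutrophil elastase gene, had 1 count in all, and Ctsg and Ms4a3 had none. Neither of the 2 tested, Mpo and Prtn3, was called. These lists were chosen with results of these data known, and their counts are descriptions. In the wild-type small intestine, where 7.17% of all genes were called, 3 of 11 tested genes of specific and gelatinase granules were called higher (Lcn2 by 9.00 ± 1.12 (SE), Wfdc21 by 6.42 ± 2.02 and Hp by 5.14 ± 1.31), 4 of 16 receptors, 1 of 8 adhesion genes, 1 of 6 oxidase subunits and 1 of 10 genes of the mature neutrophil. Lcn2, which encodes lipocalin 2, was at 7078 CPM in the library of mouse 16, where S100a8 was at 4.97 CPM, so its level did not follow the members there. In the knockout small intestine, where 0.718% were called, 1 of 11 granule genes (Lcn2) and 2 of 16 receptors (Il1r2 by 8.54 and Fpr2 by 6.97) were higher and 0 of 8 adhesion genes and 0 of 6 oxidase subunits were called. In wild-type colon, where 7.96% of all genes were called, 2 of 11 granule genes and 2 of 16 receptors were higher, as were Ly6g and Itgam of 8 adhesion genes and Cyba of 6 oxidase subunits, and G0s2 of the mature neutrophil list was lower. In knockout colon, where 0.718% were called, 2 of 11 granule genes (Hp and Lcn2) and 2 of 16 receptors (Fpr2 and Il1r2) were higher and no adhesion, oxidase or mature neutrophil gene was called. No list had a called gene in the comparisons of genotypes or regions.

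Other cells and the chemoattractants moved in part with the members. Of 7 chemoattractants and growth factors, 4 were called higher after LPS in the wild-type small intestine (7.17% of all genes) and 3 in the wild-type colon (7.96%). In knockouts 1 was called in the small intestine (Cxcl5) and 3 in the colon (0.718% of all genes in each), and the counts of the 2 genotypes are not comparable at such different shares. Summed chemoattractants were 439 and 460 CPM in the colon libraries of mice 3 and 8, whose S100a8 was highest, and 1909 to 4350 CPM in the other 3 wild-type LPS colon libraries. Of the monocyte markers 2 of 6 were higher in the wild-type small intestine, with sums of 328 to 672 CPM after LPS and 64.6 to 249.5 CPM after PBS, and in the knockout small intestine the sums were 404 to 916 and 13.0 to 76.1 CPM. In the wild-type colon the sums of monocyte markers after LPS were 1548 CPM in mouse 3 and 3526 CPM in mouse 8, the libraries with the highest S100a8, and 163 to 418 CPM in the other 3, against 146 to 204.1 CPM after PBS. The knockout colon ran from 216.5 to 433 CPM after LPS and from 45.1 to 609 CPM after PBS. The part of monocytes in the members' levels was not tested. Ly6g, the defining surface marker of mouse neutrophils, exceeded 3 counts in 6 of 37 libraries. It was at 150.9 and 200.3 CPM in the colon of mice 3 and 8, at 3.52 CPM in the small intestine and 5.06 CPM in the colon of LPS-treated knockout mice 17 and 21, in that order, and at 2.22 CPM in the small intestine of wild-type LPS mouse 13. It was at 0 in the small intestine of mouse 3. The sixth was the PBS colon library of knockout mouse 20, with 59.9 CPM of Ly6g, no S100a8 and 5076 CPM of summed epithelial markers. In wild-type colon, Ly6g was 11.24 ± 3.33 higher after LPS and differed by -1.03 without the colon libraries of mice 3 and 8 (edgeR, adjusted p = 0.894). Summed epithelial markers of the wild-type small intestine ran from 35.8 to 171.9 CPM after LPS and from 95.7 to 1020 CPM after PBS. Summed macrophage and glial markers overlapped between LPS and PBS in each genotype and region. Macrophage medians after LPS and PBS were 785.3 and 346.7 CPM in wild-type small intestine and 1341 and 399.7 CPM in knockout. In the colon they were 750.2 and 859.2 CPM, and 975.9 and 815.7 CPM. Glial medians were 2515 and 2719 CPM, and 1779 and 4681 CPM, in the small intestine. In the colon they were 3053 and 3776 CPM, and 2939 and 4711 CPM.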

How the data were processed

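The authors deposited raw read counts per gene symbol in 2 tables, whole numbers with 1 column per library. Per the submitters' processing notes the tools were Trim Galore 0.4.4, STAR 2.5.3 and DESeq2, on GRCm38. The counter, annotation and use of strand are not given in the sources used here. Each experiment was fitted alone: filterByExpr, TMM, then edgeR 4.0.16 (R 4.3.3) glmQLFit and glmQLFTest with all groups in 1 model, two-sided, with Benjamini-Hochberg adjustment over all genes and a call at an adjusted p under 0.05. The SE was the fold change over the root of its F statistic. The filter left 14090, 13107 and 14903 genes, with 3, 2 and 8 of the members.

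The members and all other gene lists were chosen with earlier results of these data known. The text names every member and, from each other list, up to 3 called genes per direction with the largest change. The likeness ranking took the 10 genes with the highest Pearson correlation over the 24 h libraries, at an average log2 CPM of at least 1, leaving out predicted genes. Where a group was at 0, a fold is a lower bound against 3 counts over that group. Where it held 1 to 3 counts, the ratio of pooled rates is given. Coordinates are from GENCODE M21 and promoters from RefSeq GRCm38.p6. Mmp9 had no promoter entry.

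No 2 replicates matched within counting error: over 143 pairs of replicates, chi-square per degree of freedom ran from 16.5 to 381. Alternatives were RLE size factors, DESeq2 1.42.0, no filter, a sex covariate, the compared groups alone, each library left out, a replicate block, a covariate for mouse number (up to 10, or 11 and above), the mice numbered 11 and above alone, and mouse 3 left out. Leaving out the colon libraries of mice 3 and 8 was added after seeing the data. At 24 h the 4 wild-type and 3 knockout LPS mice with both regions pair by animal. Python 3.11.15 and matplotlib 3.10.9 made the tables and figures.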

Additional observations from a re-analysis of the deposited data

Results flagged for a closer look

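In groups of 4 to 10 libraries, a member's highest or lowest library was set against the rest of its group by the gap to its neighbour relative to the range of the group. Of 87 combinations of member and group whose highest library exceeded 3 counts, 43 stood out. Chance flags about 1 in 20 groups of continuous values, but that rate does not hold for these counts: in 15 of the 43 all other libraries of the group were at 0, where any library with counts stands out. The list is therefore a description. All values here are CPM.

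In knockout LPS small intestine mouse 17 stood above the others for S100a8 (859), S100a9 (278), Ngp (333), Retnlg (228), Ltf (4.45), Mmp8 (105), Mmp9 (63.8) and Cxcr2 (15.6). In knockout LPS colon it was mouse 21, for Retnlg (40.4), Ltf (2.17) and Cxcr2 (8.67). Among knockout controls, mouse 20 stood out for Ltf (3.98) and mouse 12 for Mmp8 (0.693) and Mmp9 (10.9) in the small intestine, and mouse 7 for Retnlg (7.66) and Mmp9 (44.2) in the colon.

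In wild-type LPS small intestine mouse 16 was low for Retnlg (0.106) and mouse 8 high for Camp (22.0), and in wild-type LPS colon mouse 3 was high for Ngp (177) and Retnlg (53.1). Among wild-type controls, mouse 14 stood out in the colon for S100a8 (43.2), S100a9 (17.4), Ngp (82.3), Camp (7.15) and Mmp8 (0.485) and mouse 19 for Ltf (0.454). In the small intestine mouse 24 stood out for Camp (20.0) and mouse 23 for Mmp8 (1.11).

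At 2 h, female 1 stood out after LPS for S100a8 (85.6), S100a9 (45.2) and Retnlg (25.4) in the small intestine and for Camp (2.45) in the colon, and male 2 after PBS for Mmp8 (2.04) in the colon. In untreated mice, male 2 stood out in the small-intestinal myenteric plexus for S100a8 (12.5), S100a9 (8.82), Retnlg (4.41) and Ltf (1.47). In its submucosal plexus female 3 stood out for S100a8 (12.9) and S100a9 (14.8) and male 3 for Camp (1.44). In the colon male 3 stood out in the myenteric plexus for Mmp8 (2.30) and female 1 in the submucosal plexus for S100a8 (22.7) and S100a9 (8.97).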

How the results depend on the processing

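Counts of called members moved with the setting. Those for LPS against PBS at 24 h are counts on the contrasts by which the members were chosen, and support nothing. In the untreated small intestine 2 were called, and 5 with no filter and 1 with the groups alone. In the untreated colon 2 were called, and 1 with a sex covariate, 1 with the replicate block and 0 with the groups alone. At 24 h the wild-type small intestine had 5, and 3 with the groups alone and 3 in the mice numbered 11 and above. The wild-type colon had 1, and 2 with DESeq2 and 0 with no filter, with the groups alone, with the mouse-number covariate, in the mice numbered 11 and above, without mouse 3 and without the colon libraries of mice 3 and 8. The knockout small intestine had 1, and 4 with DESeq2, 2 with the mouse-number covariate and 0 with a sex covariate, with the groups alone and in the mice numbered 11 and above. The knockout colon had 2, and 5 with DESeq2 and 0 with the groups alone and in the mice numbered 11 and above. Knockout against wild type after PBS in the colon had 0, and 4 with DESeq2, which called 74 genes in all. The interaction in the colon had 0, and 3 with DESeq2, which called 344 genes in all. The cause was not tested. Over all genes, DESeq2 called 1871, 2255, 527 and 474 after LPS at 24 h in the wild-type small intestine and colon and the knockout small intestine and colon, where edgeR called 1069, 1186, 107 and 107, or 1704, 412, 47 and 7 with the groups alone. For knockout against wild type after LPS edgeR called 2 genes of small intestine and 64 of colon (range over the settings other than leaving out each library 0 to 182 and 0 to 719), for regions after LPS 39 and 11 (0 to 668 and 0 to 323), and at 2 h 144 and 102 (135 to 260 and 63 to 279). With each library left out in turn these ran from 0 to 10 and 7 to 141 for genotypes, from 7 to 153 and 1 to 16 for regions, and from 107 to 133 and 65 to 108 at 2 h.

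Leaving out each library in turn gave 2 to 2 in the untreated small intestine, 1 to 2 in the untreated colon, 3 to 5 in the wild-type small intestine (3 without PBS mouse 9), 0 to 2 in the wild-type colon, 0 to 3 in the knockout small intestine, 0 to 3 in the knockout colon and 0 to 0 elsewhere. In the wild-type colon the call was lost without LPS mouse 3 or 8 or PBS mouse 19, 22 or 24, and S100a8 and S100a9 were called without PBS mouse 14. In the knockout small intestine it was lost without LPS mouse 17, 10 or 6 or any PBS mouse, and in the knockout colon S100a8 was lost without LPS mouse 2 or 21 or any PBS mouse. The fits with fewer samples have less power by construction. The Ly6g difference in wild-type colon, 11.24, became -1.21 in the mice numbered 11 and above and -1.03 without the colon libraries of mice 3 and 8. No other called gene changed direction. Uncalled members of the wild-type colon did without the colon libraries of mice 3 and 8, as given above.

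Whether same-numbered animals of untreated and 2 h groups are pairs was not settled. The correlations of their deviations ran from -0.0965 to 0.233. Those of the 2 regions of a mouse after LPS at 24 h ran from 0.0315 to 0.206 in wild type and from 0.079 to 0.2 in knockout. These ranges overlap, so the correlations cannot decide it. The replicate block called 2 members in the untreated small intestine, 1 in the untreated colon and 0 at 2 h. Between regions at 24 h, where the animals are the same, the replicate block by mouse called 0 in both genotypes.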
